A study of Mus musculus with 42 samples.

Results

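The 6 WNT ligand genes Wnt3, Wnt3a, Wnt5a, Wnt5b, Wnt8a and Wnt11, secreted signals used by cells at the primitive streak, were examined for binding of SOX2, β-catenin and LEF1. They are 6 of 21911 protein-coding genes in the annotation. Each peak that overlapped one of these genes, taken as the mm10 gene body with 10 kb on either side, was collected from the 30 deposited lists of immunoprecipitated chromatin. This gave 504 of the 600000 peaks among the 20000 best of each list, and 2615 of 9218878 peaks in the whole lists.

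WNT proteins are lipid-modified ligands that bind Frizzled receptors. In the canonical branch, which Wnt3, Wnt3a and Wnt8a activate, receptor signalling stops the destruction of β-catenin, which then enters the nucleus and joins DNA-bound TCF/LEF proteins such as LEF1 at target genes. Wnt5a, Wnt5b and Wnt11 are better known for β-catenin-independent signalling that orients cells and drives their movement during gastrulation. Wnt3 is needed for the primitive streak to form, and Wnt3a maintains the progenitors that build the trunk and tail, which also require the CDX factors and the T-box factor T (Brachyury). SOX2 keeps pluripotent and neural progenitor cells undifferentiated.

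The cells were differentiated in culture from HM1 (129) mouse ES cells and collected at 72 h. All groups were grown in N2B27 medium with 10 ng/ml bFGF and 5 µM LGK974, a compound that blocks release of WNT ligands, so the binding described here was measured in cells whose own WNT secretion was inhibited. Cells labelled CHIR also received CHIR99021, an inhibitor of the kinase GSK3 that stabilises β-catenin without a ligand, over the last day, and noCHIR cells did not. The study calls cells without CHIR epiblast-like and cells with CHIR caudal epiblast-like. In wild-type cells it reports that CHIR lowered SOX2 expression and induced T and Cdx genes. Groups with and without CHIR therefore also differ in cell state and SOX2 level. SOX2 was immunoprecipitated from wild-type (WT) noCHIR, WT CHIR, CdxKO CHIR (without Cdx1, Cdx2 and Cdx4) and T/BraKO CHIR (without T) cells, whereas β-catenin and LEF1 were immunoprecipitated from the last 3 of these groups. Each of the 10 groups had 3 lists labelled as biological replicates. Each genotype came as a line of its own, so effects of line and deletion cannot be told apart, and the labelled cell type and deletions were not checked here because peak lists hold no expression values.

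Values are ranks. The peaks of each list were ordered by the significance that the peak caller gave them, so rank 1 is the strongest peak, and a gene's best rank is that of the strongest peak in its window. Ranks were used because the lists ran from 26940 peaks (SOX2 T/BraKO CHIR replicate 3) to 1008922 peaks (SOX2 WT CHIR replicate 1). The lists of SOX2 in WT CHIR cells (205833 to 1008922 peaks) were all longer than those in WT noCHIR cells (81239 to 201773). Read depth is unknown, since the lists give no read counts, and a peak missing from a list was not detectable there rather than absent.

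Peaks of the 20000 best fell at every ligand. Wnt3 drew the most, 136 peaks in 29 of 30 lists, followed by Wnt5b (114 in 29 lists), Wnt8a (97 in 27), Wnt3a (70 in 28), Wnt5a (54 in 23) and Wnt11 (33 in 20). The windows differ in size, because Wnt5b spans 111.8 kb and Wnt8a 6.0 kb. When overlapping peaks were merged, 128 regions were found, of which 81 were seen in 1 list and 7 in 15 lists or more. Of those 7, Wnt8a had 3, Wnt3 had 2, and Wnt3a and Wnt5b had 1 each.

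**Figure D1:**
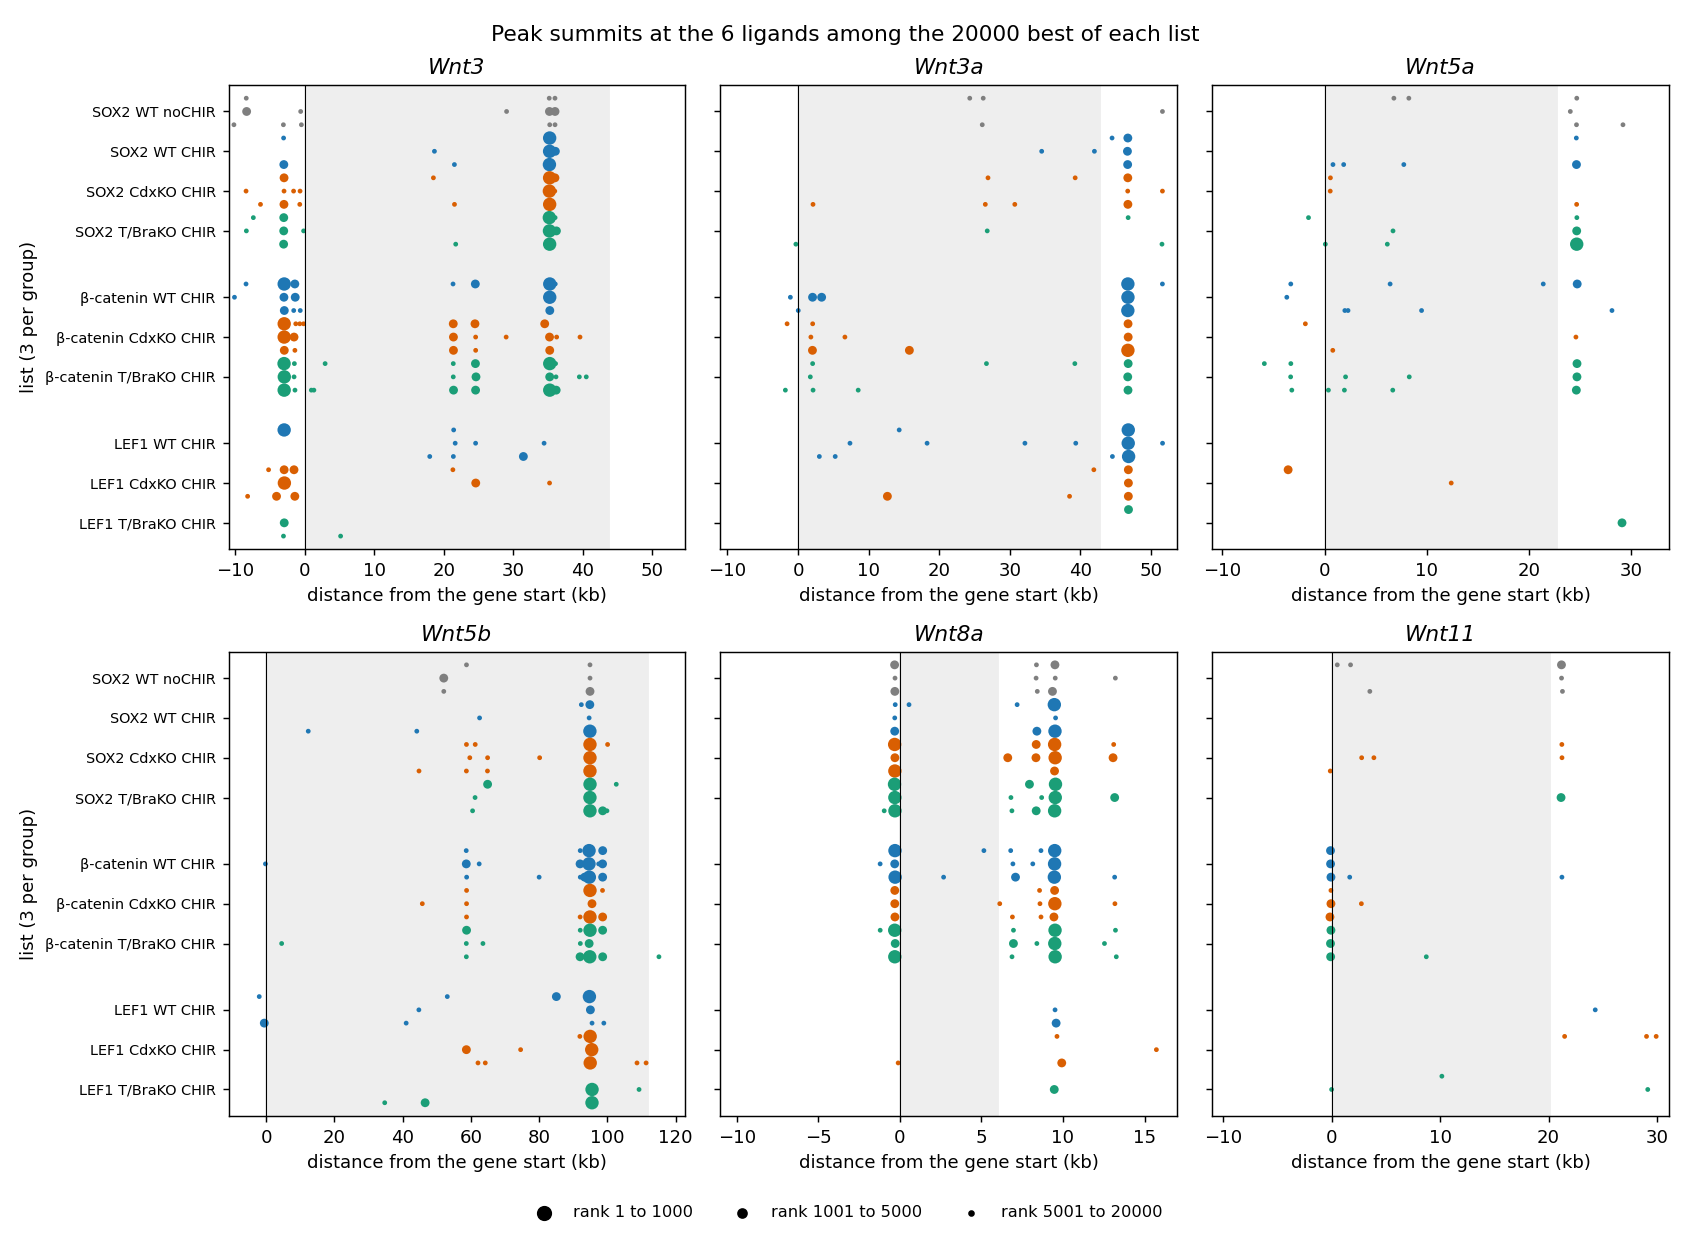
Positions of peak summits (the point of highest signal) among the 20000 best peaks of each of 30 lists, in kb from the start of each gene along its strand. Grey shading marks the gene body, each row is 1 list, point size gives the rank class, and colours are WT noCHIR (grey), WT CHIR (blue), CdxKO CHIR (orange) and T/BraKO CHIR (green). Summits stack in columns at +35.3 kb of Wnt3, +46.7 kb of Wnt3a, +94.9 kb of Wnt5b and +9.5 kb of Wnt8a, and the SOX2 column at +46.7 kb of Wnt3a has no WT noCHIR point.

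5 regions carry most of what follows, and the 201 bases centred on their median summits are printed below from GRCm38.p6 (mm10), plus strand. Wnt3 +35.3 kb (chr11:103809304-103809504) lies in an intron of Wnt3 and is shown because its SOX2 rank differed most with CHIR. The annotated transcript start nearest to its median summit is one of Nsf, at 14696 bp, so its assignment to Wnt3 rests on position in the gene body. Wnt3a +46.7 kb (chr11:59243916-59244116) lies outside annotated genes, 4.0 kb past the end of Wnt3a, and is shown because all 3 factors were found there. Wnt11 +21.2 kb (chr7:98856238-98856438), 1.1 kb past the end of Wnt11, is shown because SOX2 peaks there were found without CHIR. Wnt5b +94.9 kb (chr6:119449368-119449568), in an intron and 82 bp from the start of another annotated Wnt5b transcript, is shown because 29 of 30 lists held it, and Wnt11 −0.1 kb (chr7:98834926-98835126) because it is the promoter of a ligand where β-catenin but seldom the other factors was found. Capitals mark matches to 4 motif families on either strand: CDX (CAATAAA or CCATAAA or TAATAAA or TCATAAA), T-box (AGGTGTGA), SOX (CCATTGT or CCTTTGT) and TCF/LEF (CTTTGAA or CTTTGAT).
Wnt3 +35.3 kb: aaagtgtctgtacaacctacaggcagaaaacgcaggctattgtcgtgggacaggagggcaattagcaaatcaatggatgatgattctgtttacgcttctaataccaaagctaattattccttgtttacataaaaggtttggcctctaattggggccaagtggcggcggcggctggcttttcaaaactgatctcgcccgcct
Wnt3a +46.7 kb: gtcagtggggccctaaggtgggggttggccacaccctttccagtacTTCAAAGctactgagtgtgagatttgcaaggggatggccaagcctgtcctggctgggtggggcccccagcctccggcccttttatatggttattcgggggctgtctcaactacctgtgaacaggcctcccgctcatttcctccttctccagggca
Wnt5b +94.9 kb: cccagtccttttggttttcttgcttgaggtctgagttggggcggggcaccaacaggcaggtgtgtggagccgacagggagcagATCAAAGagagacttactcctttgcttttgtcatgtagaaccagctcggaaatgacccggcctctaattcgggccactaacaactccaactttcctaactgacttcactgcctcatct
Wnt11 −0.1 kb: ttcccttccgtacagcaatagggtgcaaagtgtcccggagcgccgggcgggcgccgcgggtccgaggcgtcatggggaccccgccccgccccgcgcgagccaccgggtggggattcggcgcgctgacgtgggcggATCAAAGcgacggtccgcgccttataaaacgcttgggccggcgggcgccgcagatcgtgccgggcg
Wnt11 +21.2 kb: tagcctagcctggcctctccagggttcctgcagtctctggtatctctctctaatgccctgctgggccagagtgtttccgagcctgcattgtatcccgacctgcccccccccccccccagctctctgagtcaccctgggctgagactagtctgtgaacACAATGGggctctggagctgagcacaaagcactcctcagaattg

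The Wnt3a, Wnt5b and Wnt11 −0.1 kb windows each held 1 TCF/LEF match, at 54 bases before, 17 bases before and 35 bases after the median summit in genome order, and in all 3 the match read on the minus strand. The Wnt11 +21.2 kb window held 1 SOX match, and the Wnt3 +35.3 kb window held none of the spelled motifs. Matches of this kind are frequent. Among all summit windows of the same length in the WT CHIR lists, TCF/LEF letters were found in 10.6% to 28.8% (median 17.4%), CDX letters in 12.9% to 16% (median 14.9%), SOX letters in 8.26% to 21% (median 11.2%) and T-box letters in 0.825% to 1.77% (median 1.07%). A match is a description of the letters and not a site, and a window without one says nothing about the factor.

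Wnt3, the canonical ligand that starts the streak, was the ligand whose SOX2 peak differed most between WT CHIR and WT noCHIR cells. Its best SOX2 peak ranked 9559, 2771 and 7074 in the 3 WT noCHIR lists. In WT CHIR cells the best SOX2 peak of Wnt3 ranked 526, 244 and 125, in CdxKO CHIR cells 465, 474 and 161, and in T/BraKO CHIR cells 466, 432 and 134. Every list with CHIR stood above every list without it, whichever the genotype, and the 3 CHIR groups overlapped each other. The geometric mean rank rose from 5722 in WT noCHIR to 252 in WT CHIR cells, a 22.7-fold difference (1.36 ± 0.25 on the −log10 rank scale, estimate ± SE, n = 3 and 3, limma, Benjamini-Hochberg adjusted p = 0.00095). WT CHIR differed from CdxKO CHIR cells by 0.11 ± 0.25 (limma adjusted p = 0.895) and from T/BraKO CHIR cells by 0.08 ± 0.25 (limma adjusted p = 0.956).

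With CHIR, the best SOX2 peak of Wnt3 lay in the intronic region at +35.3 kb (chr11:103808501-103809819) in all 9 lists. Without CHIR it lay there in replicate 2 alone, at +36.1 kb in replicate 1 and at −3.0 kb in replicate 3, so that the gene-level fold compares different regions in part. At +35.3 kb the 3 WT noCHIR lists ranked SOX2 at 9655, 2771 and 13985 with fold enrichments over background of 9.09, 17.9 and 6.63. The WT CHIR fold enrichments were 21.4, 14.1 and 39.4, so that on this scale replicate 2 of WT noCHIR lay above replicate 2 of WT CHIR. Tested on its own by limma over 20099 SOX2 regions, an analysis added after the data were seen, the Wnt3 region was 28.6-fold better ranked in WT CHIR cells (1.46 ± 0.27, adjusted p = 0.00333). Over all alternatives tried for Wnt3 the adjusted p ran from 0.00023 to 0.315, and the highest came from a window of 50 kb on either side, where the difference was 0.47 and not called.

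β-catenin was found at Wnt3 in all 9 lists, both at +35.3 kb and at −3.0 kb (chr11:103770828-103771586), upstream of the gene. At −3.0 kb, β-catenin ranked 602, 1234 and 1248 in WT CHIR, 348, 700 and 1051 in CdxKO CHIR, and 405, 400 and 428 in T/BraKO CHIR cells. At +35.3 kb, the β-catenin peak of Wnt3 ranked 914, 504 and 1091 in WT CHIR, 1052, 1190 and 1644 in CdxKO CHIR, and 625, 1474 and 546 in T/BraKO CHIR cells. The −3.0 kb region ranked better than the +35.3 kb region in 7 of the 9 lists, the exceptions being WT CHIR replicates 2 and 3. Both Wnt3 regions were within the first 1644 peaks of every β-catenin list, and at −3.0 kb all 3 T/BraKO lists stood above all 3 WT lists. Tested on its own, the −3.0 kb region differed by −0.38 ± 0.17 between WT and T/BraKO CHIR cells and was not called (limma over regions, adjusted p = 0.282). The best β-catenin rank of Wnt3 differed by −0.23 ± 0.17 between WT and T/BraKO CHIR cells (limma adjusted p = 0.713), and by −0.04 ± 0.17 between WT and CdxKO CHIR cells (limma adjusted p = 0.971), neither of which was called.

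LEF1 at Wnt3 was weaker and less regular. Its best rank was 836, 8800 and 2355 in WT CHIR, 1179, 746 and 1876 in CdxKO CHIR, and 25290, 4944 and 7759 in T/BraKO CHIR cells, and the groups overlapped. LEF1 was among the 20000 best at −3.0 kb in 5 of 9 lists and at +35.3 kb in 2. Another intronic region of Wnt3, at +21.4 kb (chr11:103795130-103796084), held a LEF1 peak among the 20000 best in all 3 WT CHIR lists, at ranks 16626, 15776 and 19628, and in none of the 3 T/BraKO CHIR lists. These ranks lie near the limit of 20000, and outside it T/BraKO CHIR lists held peaks there at ranks 118715 and 72541. The peak at rank 72541 lay outside the narrower LEF1 region (chr11:103795262-103795874) that was counted and tested. In CdxKO CHIR cells LEF1 at Wnt3 +21.4 kb ranked 9763, 84232 and 39624. Tested on its own the region was not called, with a difference of 0.06 ± 0.14 from T/BraKO CHIR cells (limma over regions, adjusted p = 0.938) and −0.04 ± 0.14 from CdxKO CHIR cells (limma over regions, adjusted p = 0.966).

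Wnt3a, the ligand of the caudal progenitors, had 1 prominent region in every factor, at +46.7 kb (chr11:59243629-59244475). The median summits of SOX2, β-catenin and LEF1 lay within 77 bp of each other. It is outside the gene body, and the start site nearest to it was that of Arf1 rather than that of Wnt3a, so the assignment to Wnt3a rests on the 10 kb window. The window of Wnt3a also overlaps that of its neighbour Wnt9a.

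SOX2 was not detected at the Wnt3a region in any of the 3 WT noCHIR lists, whole lists included. In WT CHIR cells it ranked 4993, 4431 and 1184 there, and in CdxKO CHIR cells 3050, 13390 and 1144. In T/BraKO CHIR cells the SOX2 peak at the Wnt3a region ranked 7811, 55880 and 24611, below all 3 WT CHIR lists. Of SOX2 regions genome-wide, 0.146% were held by all 3 WT CHIR lists and no WT noCHIR list among the 20000 best. At the level of the gene, where weaker SOX2 peaks inside Wnt3a gave the WT noCHIR lists best ranks of 11800, 15560 and 12282, the difference was 0.64 ± 0.25 and was not called (limma adjusted p = 0.166). Tested on its own over regions, the +46.7 kb region of Wnt3a was 6.73-fold better ranked in WT CHIR than in WT noCHIR cells (0.83 ± 0.26, limma adjusted p = 0.0464, an added analysis), with lists that lacked a peak set to the rank just past 20000. All 3 WT noCHIR lists took that set rank and so had no spread. The region entered this test through lists with CHIR alone, so its p-value adds no support beyond the ranks above. Over the gene-level alternatives the adjusted p of this Wnt3a comparison ran from 0.124 to 0.977.

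β-catenin was found at the Wnt3a region in all 9 lists. The region at +46.7 kb ranked 910, 146 and 143 in WT CHIR cells, 1544, 1315 and 456 in CdxKO CHIR cells and 2414, 3373 and 1114 in T/BraKO CHIR cells. All 3 WT lists stood above all 3 T/BraKO lists, and CdxKO lists lay between them with an overlap on each side. The fold enrichments at the Wnt3a region were 16.4, 60.6 and 76.8 in WT CHIR against 17.0, 8.11 and 9.22 in T/BraKO CHIR cells, and on this scale replicate 1 of WT lay below replicate 1 of T/BraKO. The best β-catenin rank of Wnt3a was 7.82-fold better in WT than in T/BraKO CHIR cells (0.89 ± 0.19, n = 3 and 3, limma adjusted p = 0.00081). This call was lost without WT CHIR replicate 2 (adjusted p = 0.0983), without WT CHIR replicate 3 (0.106) and without T/BraKO CHIR replicate 2 (0.0604), with Wnt3a still better ranked in WT cells in each. It was also lost with no filter on genes (adjusted p = 0.219) and with limma without trend (adjusted p = 0.109), both with a difference of 0.89, and in the gene body alone, which leaves out the +46.7 kb region, the difference was −0.11 (adjusted p = 0.912). Against CdxKO CHIR cells the Wnt3a difference was 0.56 ± 0.19 and was not called (limma adjusted p = 0.219).

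LEF1 ranked 266, 190 and 371 at Wnt3a in WT CHIR cells, the best LEF1 ranks of any of the 6 ligands in that group by geometric mean. In CdxKO CHIR cells LEF1 at Wnt3a ranked 1181, 1035 and 2495, and in T/BraKO CHIR cells 2340, 26788 and 26651. All 3 WT lists stood above all lists of both deletions. The difference from T/BraKO CHIR cells was 36.8-fold in rank (1.57 ± 0.47) with an unadjusted limma p of 0.0008, but it did not pass the adjustment over 13051 genes (adjusted p = 0.552), and the difference from CdxKO CHIR cells was 0.74 ± 0.47 (limma adjusted p = 0.976).

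**Figure D2:**
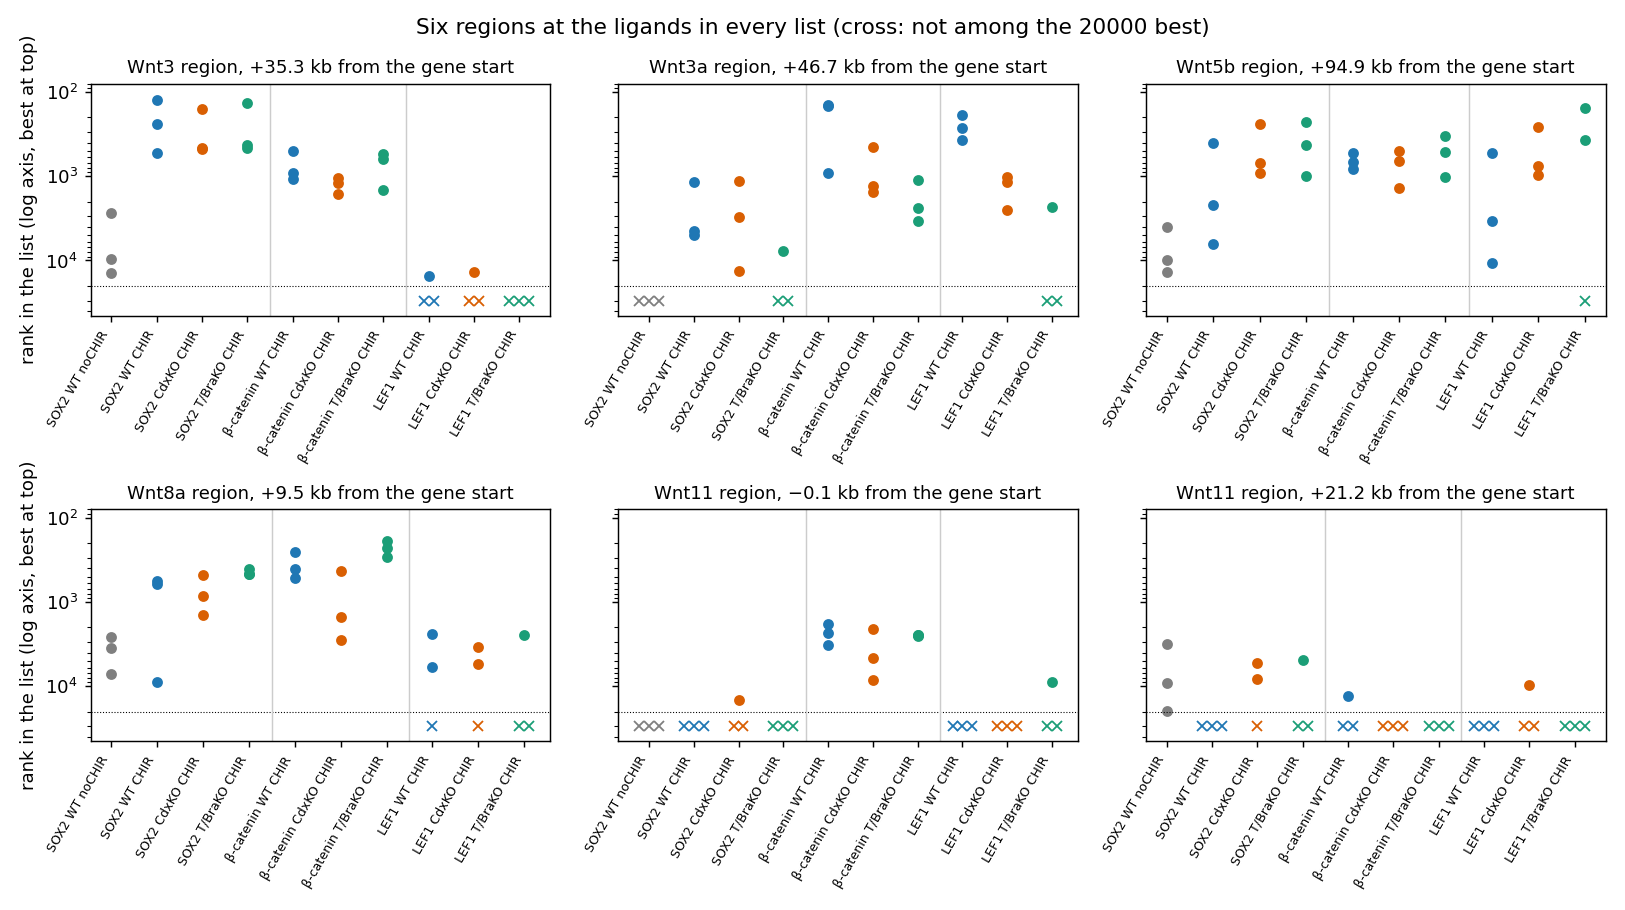
Rank of 6 regions in each of 30 lists, on a log axis with the best rank at the top. Points are single lists, crosses are lists in which the region was not among the 20000 best, and the dotted line is rank 20000. At Wnt3 +35.3 kb the 9 SOX2 lists with CHIR (125 to 526) lie above the 3 without (2771 to 13985), and at Wnt3a +46.7 kb the WT CHIR lists of β-catenin (143 to 910) and LEF1 (190 to 371) lie above those of T/BraKO CHIR cells.

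Wnt8a, a canonical ligand of the early streak, had SOX2 and β-catenin peaks at its promoter (−0.3 kb) and at +9.5 kb (chr18:34551191-34552378), 3.5 kb past the gene end. The +9.5 kb region was held by 26 of 30 lists. β-catenin ranked 254, 522 and 410 there in WT CHIR, 1492, 425 and 2822 in CdxKO CHIR, and 188, 231 and 297 in T/BraKO CHIR cells. SOX2 ranked 2627, 7158 and 3560 at Wnt8a +9.5 kb in WT noCHIR cells and 619, 8816 and 566 in WT CHIR cells, where replicate 2 stood apart from the other 2 lists. In CdxKO CHIR cells SOX2 ranked 863, 477 and 1413 there, and in T/BraKO CHIR cells 472, 469 and 403.

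The promoter of Wnt8a, described after its values were seen, showed SOX2 in all 12 lists. Its ranks were 2374, 7621 and 3667 in WT noCHIR, 6062, 9499 and 1200 in WT CHIR, 908, 2016 and 1000 in CdxKO CHIR, and 331, 431 and 701 in T/BraKO CHIR cells. All 3 T/BraKO lists stood above the lists of the other groups. Tested on its own, the promoter region differed by −0.95 ± 0.27 between WT and T/BraKO CHIR cells and was not called (limma over regions, adjusted p = 0.3). By best rank of the gene, SOX2 at Wnt8a differed by −0.58 ± 0.27 between WT and T/BraKO CHIR cells (limma adjusted p = 0.511) and β-catenin by 0.44 ± 0.18 between WT and CdxKO CHIR cells (limma adjusted p = 0.474), so that none was called. LEF1 was sparse at Wnt8a, with best ranks of 25274, 5835 and 2423 in WT CHIR, 5445, 5333 and 3421 in CdxKO CHIR, and 44831, 2460 and 26632 in T/BraKO CHIR cells.

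Wnt5b, a ligand of the β-catenin-independent branch, had the most widely shared region, at +94.9 kb (chr6:119448204-119450326). It was among the 20000 best in 12 of 12 SOX2, 9 of 9 β-catenin and 8 of 9 LEF1 lists. SOX2 at this Wnt5b region ranked 9952, 13880 and 4011 in WT noCHIR, 2222, 6303 and 402 in WT CHIR, 702, 907 and 238 in CdxKO CHIR, and 428, 994 and 231 in T/BraKO CHIR cells. The WT CHIR lists overlapped all other groups. β-catenin ranked 682, 821 and 532 in WT CHIR, 660, 1400 and 505 in CdxKO CHIR, and 520, 1015 and 331 in T/BraKO CHIR cells, with no separation between genotypes. The differences of the Wnt5b best rank were 0.06 ± 0.17 (limma adjusted p = 0.949) and −0.08 ± 0.17 (limma adjusted p = 0.926) for β-catenin, and they were 0.40 ± 0.27 for SOX2 between WT CHIR and WT noCHIR cells (limma adjusted p = 0.467).

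LEF1 at Wnt5b +94.9 kb ranked 526, 3395 and 10644 in WT CHIR, 765, 262 and 969 in CdxKO CHIR, and 32967, 368 and 154 in T/BraKO CHIR cells. The spread within groups exceeded the distance between them. The start of Fbxl14, a gene on the opposite strand, lies inside the Wnt5b window at 64.7 kb from the Wnt5b start, and peaks near it were counted for Wnt5b.

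Wnt5a, which directs polarity and outgrowth of the posterior body, ranked below Wnt5b in every SOX2 and β-catenin group by geometric mean. Its main region, at +24.7 kb (chr14:28528265-28529767), lies 2.0 kb past the gene end. β-catenin ranked 4183, 24948 and 23451 there in WT CHIR, 32122, 8583 and 43546 in CdxKO CHIR, and 3574, 2677 and 1712 in T/BraKO CHIR cells, so that the T/BraKO lists of Wnt5a stood above those of both other groups. The difference in best β-catenin rank at Wnt5a between WT and T/BraKO CHIR cells was −0.40 ± 0.20 (limma adjusted p = 0.491) and was not called. Tested on its own, the +24.7 kb region differed by −0.67 ± 0.25 between these groups and was not called either (limma over regions, adjusted p = 0.146). SOX2 ranked 6507, 8881 and 6757 there in WT noCHIR and 5432, none and 1879 in WT CHIR cells, where "none" means no peak in the whole list, and 7983, 1678 and 688 in T/BraKO CHIR cells. With the CdxKO CHIR lists included, 9 SOX2 lists held the +24.7 kb region among the 20000 best. Its SOX2 difference between WT and CdxKO CHIR cells was 0.39 ± 0.29 (chr14:28529085-28529767, limma over regions, adjusted p = 0.647). No LEF1 list held the +24.7 kb region of Wnt5a among the 20000 best. A β-catenin region upstream of Wnt5a, at −3.3 kb, was in the whole lists of all WT CHIR (ranks 7661, 9436 and 30928) and T/BraKO CHIR replicates (5312, 14596 and 7569) and in no CdxKO CHIR list. The β-catenin lists ran to 469083 peaks in WT CHIR and to 140907 in CdxKO CHIR cells. In whole lists, 892 of 759077 β-catenin regions were held by all WT CHIR lists and no CdxKO CHIR list. The −3.3 kb region was tested and not called (0.25 ± 0.21 for WT against CdxKO CHIR cells, limma over regions, adjusted p = 0.714). Its 201-base window held 3 CDX matches, and a link between these letters and the lists was not tested. The windows of Wnt5a +24.7 kb and Wnt8a +9.5 kb also held 1 CDX match each, and there every CdxKO CHIR list of β-catenin had a peak. CDX letters were in 12.9% to 16% of all summit windows of WT CHIR lists.

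Wnt11, which guides cell movement at the streak, had a different pattern for each factor. β-catenin was found at its promoter, at −0.1 kb (chr7:98834526-98835371), in 9 of 9 lists. It ranked 2355, 3255 and 1810 in WT CHIR, 8392, 2121 and 4638 in CdxKO CHIR, and 2511, 2461 and 2475 in T/BraKO CHIR cells, which overlapped. SOX2 and LEF1 were among the 20000 best at the Wnt11 promoter in 1 list each.

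SOX2 was instead found past the end of Wnt11, at +21.2 kb (chr7:98856099-98856682), in cells without CHIR. It ranked 3158, 9158 and 19529 in the WT noCHIR lists and was in none of the 3 WT CHIR lists, whole lists included, although those were the longer lists. In CdxKO CHIR cells SOX2 at the Wnt11 region ranked 8255, 5260 and 35094, and in T/BraKO CHIR cells it ranked 39796 and 4929 and was not detected in replicate 3. Of SOX2 regions genome-wide, 3.89% were held by all 3 WT noCHIR lists and no WT CHIR list among the 20000 best. The best SOX2 rank of Wnt11 differed by −0.43 ± 0.23 between WT CHIR and WT noCHIR cells, which was not called (limma adjusted p = 0.336), and the region on its own by −0.38 ± 0.23 (limma over regions, adjusted p = 0.339). The pseudogene Gm8398 starts 1243 bp from the summit of this region.

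**Figure D3:**
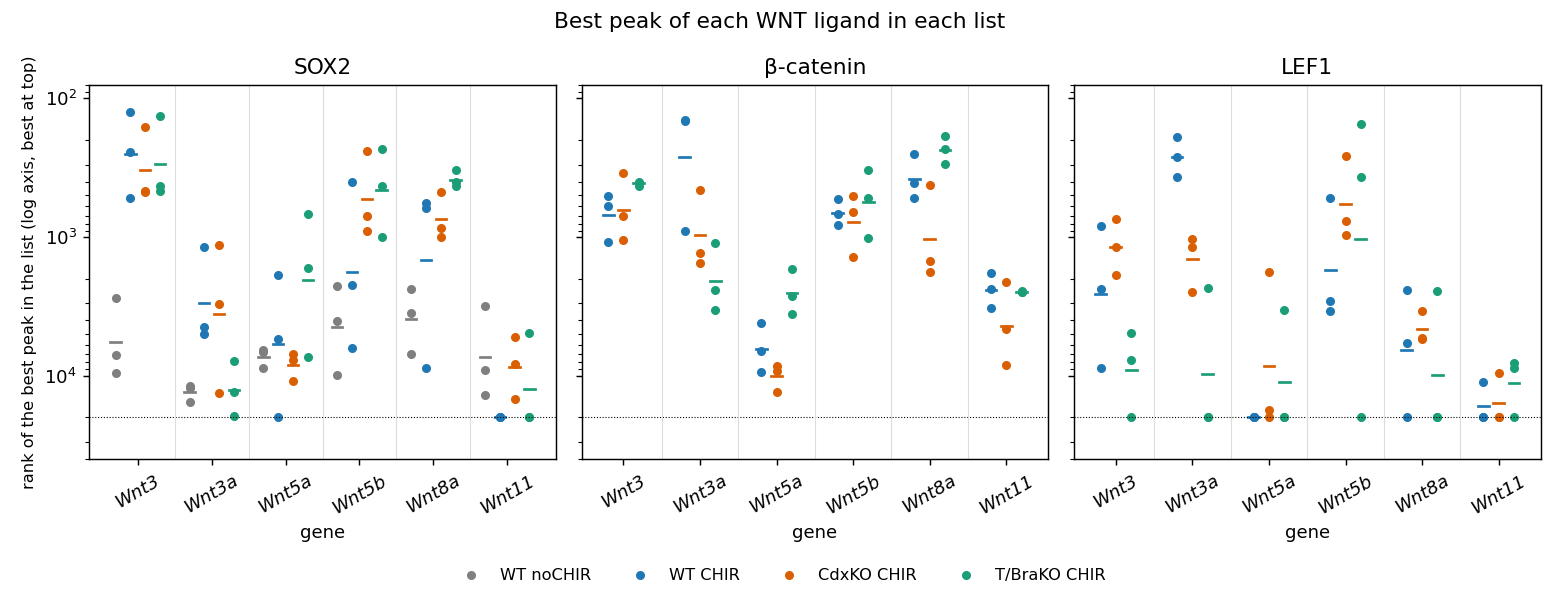
Rank of the best peak at each ligand in each list of SOX2, β-catenin and LEF1, on a log axis with the best rank at the top. Points are single lists, short bars are geometric means of 3 lists, and lists with no peak among the 20000 best are drawn just past rank 20000, on the dotted line. SOX2 at Wnt3 is higher in all 3 CHIR groups than in WT noCHIR cells, and β-catenin and LEF1 at Wnt3a are highest in WT CHIR cells.

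The order of the ligands differed by factor. In WT CHIR cells the geometric mean of the best SOX2 rank placed Wnt3 first (252), then Wnt8a (1456), Wnt5b (1779), Wnt3a (2970), Wnt5a (5888) and Wnt11, which had no peak among the 20000 best. The lists of Wnt3 (125 to 526) lay above those of Wnt8a (566 to 8816) but overlapped those of Wnt5b (402 to 6303), and Wnt8a, Wnt5b, Wnt3a and Wnt5a each overlapped the next. For β-catenin the order was Wnt3a (267), Wnt8a (379), Wnt5b (668), Wnt3 (692), Wnt11 (2403) and Wnt5a (6407). The ranges of Wnt3a (143 to 910), Wnt8a (254 to 522), Wnt5b (532 to 821) and Wnt3 (504 to 1091) overlapped or adjoined, whereas all lists of Wnt11 and Wnt5a ranked below these 4. For LEF1 the order was Wnt3a (266), Wnt5b (1729), Wnt3 (2588), Wnt8a (6564) and Wnt11 (16467), with no Wnt5a peak among the 20000 best in any list. Neighbouring LEF1 ranges overlapped except that Wnt3a (190 to 371) lay above the lists of all other ligands. Longer windows hold more peaks, so ranks were compared mainly within a gene.

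The first comparison asked at which ligands the SOX2 rank differed between wild-type cells with and without CHIR. Between WT CHIR and WT noCHIR cells, limma called 1 of 6 ligands, Wnt3, with the better rank in WT CHIR cells, while 480 of 13710 genes (3.5%) were called genome-wide. The 3 lists of each group did not overlap for Wnt3 and Wnt3a, higher in WT CHIR (7.03% of all genes), and for Wnt11, lower in WT CHIR (9.26% of all genes). With all 9 CHIR lists of the 3 genotypes set against the 3 WT noCHIR lists, a count added after the data were seen, Wnt3 remained (1.52% of genes), whereas CdxKO and T/BraKO lists overlapped the WT noCHIR lists at Wnt3a. The median difference over the 6 ligands was 0.41, beside 0.04 over all genes tested.

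The remaining comparisons asked whether binding at the ligands differed in cells without CDX factors or without T. For SOX2, limma called 0 of 6 ligands against CdxKO CHIR cells (0.0584% of genes were called, 1489 genes and 0 ligands had an unadjusted p under 0.05) and 0 of 6 against T/BraKO CHIR cells (0% of genes, 1289 genes and 3 ligands with an unadjusted p under 0.05). Lists of SOX2 did not overlap for Wnt11, lower in WT than in CdxKO CHIR cells (6.05% of genes), and for no ligand in the other direction (3.89%). Against T/BraKO CHIR cells they did not overlap for Wnt3a, higher in WT (3.68% of genes), and for Wnt8a, lower in WT (4.72%). The T/BraKO CHIR group includes the shortest list, replicate 3, and without it limma called 0 ligands there too.

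For β-catenin, limma called 1 of 6 ligands against T/BraKO CHIR cells, Wnt3a (2.22% of genes were called), and 0 of 6 against CdxKO CHIR cells (0.86% of genes, 903 genes and 2 ligands with an unadjusted p under 0.05). Lists did not overlap against T/BraKO CHIR cells for Wnt3a, higher in WT (6.53% of genes), and for Wnt3 and Wnt5a, lower in WT (6.78%). Against CdxKO CHIR cells the lists of all 6 ligands overlapped, with 6.2% of genes higher and 4.6% lower in WT without overlap. For LEF1, limma called 0 of 6 ligands in either comparison. Of all genes 0% were called against CdxKO CHIR cells (494 genes and 0 ligands with an unadjusted p under 0.05) and 0.0383% against T/BraKO CHIR cells (518 genes and 1 ligand). LEF1 lists of Wnt3a did not overlap with either deletion, higher in WT, which 3.52% of genes did against CdxKO and 3.72% against T/BraKO CHIR cells, and no ligand did so in the lower direction (3.7% and 3.43%). With 3 lists against 3, an exact permutation test of 1 gene cannot give a p under 0.1, so no such p is given.

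Regions held by all 3 lists of one group and none of the other among the 20000 best were few at the ligands. There were 3 in all, the Wnt3a and Wnt11 regions of SOX2 between WT CHIR and WT noCHIR cells and the LEF1 region of Wnt3 at +21.4 kb between WT and T/BraKO CHIR cells (0.0947% of LEF1 regions, and 0.0259% in the other direction, where no ligand had one). No ligand had such a SOX2 region against CdxKO CHIR cells (0.059% in WT CHIR alone and 0.955% in CdxKO CHIR alone genome-wide) or T/BraKO CHIR cells (0.0447% and 0.719%). The same held for β-catenin against CdxKO CHIR cells (0.506% and 0.322%) and T/BraKO CHIR cells (0.608% and 0.815%), and for LEF1 against CdxKO CHIR cells (0.0346% and 0.0983%). All genotype comparisons of a factor share the WT CHIR lists, so they are not independent of each other.

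**Figure D4:**
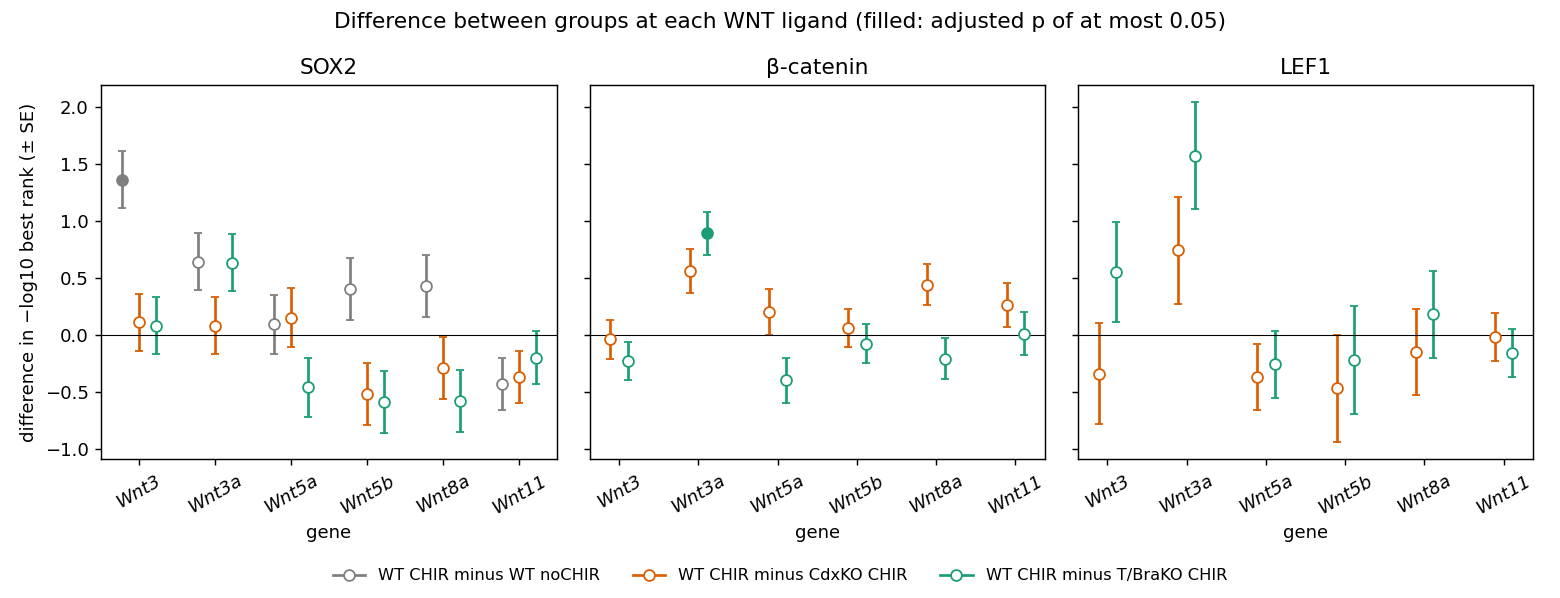
Difference in −log10 best rank between WT CHIR cells and each other group at the 6 ligands, as estimate ± SE from limma over all lists of a factor, with values above 0 meaning a better rank in WT CHIR cells. Filled points passed an adjusted p of 0.05, which 2 did, Wnt3 for SOX2 against WT noCHIR (1.36) and Wnt3a for β-catenin against T/BraKO CHIR (0.89), and the open LEF1 point of Wnt3a against T/BraKO CHIR (1.57) has the widest gap and an SE of 0.47.

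Other genes of the WNT pathway were read from a list of 63, of which 55 were tested for SOX2, 52 for β-catenin and, with LEF1, 50. For SOX2 between WT CHIR and WT noCHIR cells, 4 were called with a better rank and 3 with a worse rank in WT CHIR cells, 12.7% of the list beside 3.5% of all genes (148 better and 332 worse of 13710). The best 3 that rose were Lgr5, a receptor for R-spondins, from 7703, 2461 and 1216 to 61, 55 and 235 (1.49 ± 0.28, limma adjusted p = 0.00093), Wls, which carries WNT ligands to the cell surface, from 18056, 5509 and 32434 to 706, 849 and 365 (1.32 ± 0.25, limma adjusted p = 0.0012), and Sp5, a transcription factor induced by WNT, from 2442, 2691 and 2876 to 604, 86 and 83 (1.21 ± 0.25, limma adjusted p = 0.00289). The 3 that fell were the ligand Wnt8b (−1.08 ± 0.26, adjusted p = 0.0143), the receptor Ror1 (−0.96 ± 0.24, adjusted p = 0.0184) and the ligand Wnt1 (−0.91 ± 0.23, adjusted p = 0.0214), all by limma.

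In the genotype comparisons limma called 3 further genes of the list, 1 of 52 for β-catenin against CdxKO CHIR cells (1.92%, beside 0.86% of all genes) and 2 of 50 for LEF1 against T/BraKO CHIR cells (4%, beside 0.0383%). β-catenin at Fzd10, a Frizzled receptor, ranked 73, 127 and 121 in WT CHIR against 1121, 819 and 1286 in CdxKO CHIR cells (1.01 ± 0.17, adjusted p = 9e-05). LEF1 at Dkk4, a secreted antagonist of canonical WNT, ranked 281, 315 and 359 in WT CHIR against 26943, 52748 and 45014 in T/BraKO CHIR cells (1.80 ± 0.41, adjusted p = 0.0368). LEF1 at Tcf7l1, a repressive TCF, was the one gene that ranked worse in WT on average (274, 3 and 213 against 14, 8 and 1, with overlapping lists, −1.06 ± 0.22, adjusted p = 0.00682). No gene of the list was called in the other 4. There an unadjusted limma p under 0.05 was found for 6 genes for β-catenin against T/BraKO CHIR cells (11.5%, beside 9.77% of all genes) and for 6 for LEF1 against CdxKO CHIR cells (12%, beside 3.79%). For SOX2 it was found for 7 against CdxKO CHIR cells (12.7%, beside 10.9%) and for 3 against T/BraKO CHIR cells (5.45%, beside 9.4%).

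The genes whose best ranks followed each ligand most closely were found by Pearson's r of −log10 best rank over the 30 lists, after the mean of each factor was subtracted, among 20637 to 20639 protein-coding genes. These values are descriptions over lists that share groups and cultures. Wnt3 was most like Sp5 (r = 0.81) and Kmt2a (0.79), Wnt3a like Ano4 (0.75) and Appl1 (0.74), and Wnt5a like Hpcal1 (0.73) and Met (0.72). Wnt5b was most like Efnb1 (r = 0.86) and Rhob (0.76), Wnt8a like Cftr (0.77) and Zbtb24 (0.71), and Wnt11 like Esyt1 (0.70) and Ctr9 (0.63). Sp5 had its best SOX2 peak at a median rank of 2691 in WT noCHIR, 86 in WT CHIR, 102 in CdxKO CHIR and 80 in T/BraKO CHIR cells, beside 7074, 244, 465 and 432 at Wnt3. In WT, CdxKO and T/BraKO CHIR cells the β-catenin medians were 6, 15 and 4 at Sp5, beside 602, 700 and 405 at Wnt3. The LEF1 medians were 208, 160 and 223 at Sp5, beside 2355, 1179 and 7759 at Wnt3, where the LEF1 groups overlapped and no difference was called.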

How the data were processed

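ChIP-seq of SOX2, β-catenin and LEF1 was measured in 42 samples. Of these, 30 immunoprecipitated libraries were used and 12 inputs were not used here. Per the labels, the authors called peaks with MACS2 on mm10. Per the study's methods, reads were trimmed with Trim Galore and aligned with BWA in the nf-core chipseq pipeline, and each library has its own list, without pooling. The deposited lists give each peak a fold enrichment (a ratio over background), a −log10 p-value and a −log10 q-value, and a summit position, with no read counts, so depth and counting error are unknown.

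Peaks were ordered by the deposited −log10 q-value, with ties broken by the −log10 p-value and the fold ratio where these differed. Best ranks past 20000, and genes without a peak, were set to the rank just past 20000. The test was limma 3.58.1 in R 4.3.3 (group means, all lists of a factor, eBayes with trend) on −log10 best rank over protein-coding genes with a peak among the 20000 best in at least 3 lists of the factor, with Benjamini-Hochberg adjustment over all genes tested and a threshold of 0.05. The study tested read counts, which the lists do not hold. p-values measure the spread between replicate lists. Code was run in Python 3.11.15 with pandas 2.3.3, numpy 2.4.6 and matplotlib 3.10.9, and was tested on simulated data.

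The members, gene lists and motifs were chosen with earlier results of these data known. Genes and regions named were the 6 ligands, the best region per ligand and factor in WT CHIR lists, regions held by 1 group alone, up to 3 called genes per direction of the WNT list, and the 2 genes most like each ligand. Alternatives were 5000 best peaks, whole lists, ordering by fold enrichment, other windows, counting a peak by its summit, a −log10 q-value of at least 5, a 50% overlap, no filter, no trend, a replicate block and leaving out each list.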

Additional observations from a re-analysis of the deposited data

How the results depend on the processing

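Each value was recomputed with 1 choice changed at a time. Of 617 values for single ligands, 562 kept their direction and their side of the threshold, 46 not called changed direction, 6 lost a call, 2 gained one and 1 called value reversed. The SOX2 call of Wnt3 between WT CHIR and WT noCHIR cells was kept without any single list (1.2 to 1.52) and lost with a 50 kb window (0.47, limma adjusted p = 0.315). The β-catenin call of Wnt3a against T/BraKO CHIR cells reversed in the gene body alone (−0.11, adjusted p = 0.912), which leaves out the region past the gene end, and was lost with no filter (adjusted p = 0.219) and without trend (adjusted p = 0.109), both with a difference of 0.89. Leaving out 1 list gave differences of 0.76 to 1.16. The 50 kb window added calls of Wnt8a for SOX2 against WT noCHIR (0.92, adjusted p = 0.00778) and β-catenin against CdxKO CHIR cells (0.77, adjusted p = 0.0211). LEF1 at Wnt5a, Wnt8a and Wnt11 gave no value in the gene body alone, since under 3 lists held a peak there among the 20000 best, and neither did LEF1 at Wnt5a or LEF1 and SOX2 at Wnt11 with the 5000 best peaks. The other causes were not tested.

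Of 288 counts under alternatives that could change them, 227 stayed within 1.5 times. Ligands called by limma became 2 for SOX2 against WT noCHIR on regions, 1 for β-catenin against CdxKO with 50 kb, and 0 for β-catenin against T/BraKO in the gene body, with no filter or without trend, and without 1 list the last ran from 0 to 1. Ligands whose lists did not overlap became, for SOX2, 1 against WT noCHIR in the gene body or with 9 CHIR lists, 0 against CdxKO with 5000 best peaks, by fold enrichment or in the gene body and 2 with 50 kb, and 1 by fold enrichment and 0 in the gene body against T/BraKO. For β-catenin they became 3 against CdxKO with 50 kb and 0 against T/BraKO in the gene body, and for LEF1 0 against CdxKO in the gene body. Without 1 list they ran from 3 to 6, 1 to 2 and 2 to 3 for SOX2 (against WT noCHIR, CdxKO and T/BraKO), 0 to 2 and 3 to 4 for β-catenin (CdxKO, T/BraKO), and 1 to 3 and 1 to 2 for LEF1. With a list left out fewer lists must separate, so the shares given above for 3 lists against 3 do not apply. Shares of all genes are not given for these alternatives, and nothing is read from these counts about the ligands.

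Regions held by 1 group alone became, for SOX2, 1 with 5000 best peaks, 5 in whole lists and 0 by fold enrichment against WT noCHIR, 1 in whole lists against CdxKO and 1 with 5000 best peaks against T/BraKO. For β-catenin against CdxKO they became 1 with 5000 best peaks and 2 in whole lists. For LEF1 they became 3 in whole lists against CdxKO, and 0 with 5000 best peaks, 4 in whole lists and 0 by fold enrichment against T/BraKO. Without 1 list they ran from 2 to 4, 0 to 2 and 0 to 3 for SOX2, 0 to 2 and 0 to 4 for β-catenin, and 0 to 1 and 1 to 2 for LEF1, in the same order. Linking peaks only by an overlap of 50% of the shorter, added after the data were seen, changed none of these counts. The planned 50% overlap of peak and region could not change a count, since a peak always lies inside its merged region, and its 7 values are left out of the totals. Genome-wide in whole lists, 2693 SOX2 regions were in WT CHIR alone and 2717 in WT noCHIR alone, of 1569599. For LEF1 the counts were 1866 in WT and 5512 in CdxKO alone, of 2671427. Against T/BraKO they were 1852 and 5372, of 2848605.

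No pairing by replicate number was detected: correlations of same-numbered lists' deviations ran from −0.06 to 0.09, under the chosen limit of 0.1. Those of number 3 were positive in every comparison (0.02 to 0.09). Low correlations cannot show whether same-numbered lists came from 1 experiment. With a replicate block in place of the overlap count, so that a ligand counted when all 3 same-numbered pairs differed one way, 2 ligands counted for SOX2 and 1 for β-catenin against CdxKO CHIR cells. The share of all genes that did so is not given. As a term in limma the block changed no call of a ligand. Read depth is unknown, and ranks near 20000 and missing peaks depend on it.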
